A study of Mus musculus with 17 samples.

Results

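Transcript levels of 7 genes of the plasminogen system and of the serpin family, *Plat*, *Plau*, *Plaur*, *Serpine2*, *Serpinf1*, *Serpina3n* and *Serpinb6b*, were followed in cardiac fibroblasts (CFs) over the first 6 days post infarction (dpi). They were chosen by name, as activators, receptor and inhibitors of the plasmin cascade and further serpins, and are 7 of the 31053 genes listed in the count table. The data are bulk RNA-seq counts of 17 libraries made by MARS-seq, which primes on the poly-A tail and so counts the 3′ ends of transcripts. Days 1, 2, 4 and 6 had 3 libraries each, day 3 had 4 and day 5 had 1.

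All groups came from C57BL/6 mice of 8 to 10 weeks that carried GFP under the *Col1a1* promoter and had a myocardial infarction, made by permanent ligation of the left anterior descending coronary artery. By their labels, the groups differ only in the day of collection, and no library of an uninfarcted heart was analysed here. Live GFP+/CD31-/CD45- cells were sorted after enzymatic digestion of the ventricles and enrichment on magnetic beads, so that the endothelial marker CD31 and the leukocyte marker CD45 were selected against. GFP follows *Col1a1*, and the sort therefore takes cells in which this collagen promoter is or was active. In bulk RNA, fewer cells of a type and less RNA per cell cannot be told apart. The labels call libraries of a day replicates without naming the mice, and p-values then measure the spread between these libraries.

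Plasminogen is an inactive protease of the blood that becomes plasmin, which dissolves fibrin and cleaves other matrix proteins, once tissue-type (*Plat*) or urokinase-type (*Plau*) plasminogen activator cuts it. Urokinase works at the cell surface when bound to its receptor, encoded by *Plaur*. Serpins are a family of proteins most of which trap a protease irreversibly, and plasminogen activator inhibitors are among them. After an infarction, this cascade is known for its part in clearing fibrin and dead tissue and in the movement of cells into the wound.

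Total counts per library ranged from 8021815 to 22029938, and 14030 genes had at least 10 counts in at least 3 libraries and were tested. Levels are given as CPM, a gene's counts as a share of its library's total, or as log2 CPM after TMM normalization, which corrects for differences in composition. Summed over 8 fibroblast markers, the libraries held between 12212.7 and 38656.89 CPM, with 12212.7 to 18839.51 at 1 dpi and at least 22493.95 at 2 to 5 dpi. At 6 dpi these sums were 17905.2 to 31947.2 CPM, which overlaps the range of 1 dpi. Libraries differed in other ways than their day. *Xist* had at least 1005 counts in each 4 and 6 dpi library and at most 2 at 3 and 5 dpi, where 4 Y-linked genes together had at least 402. At 2 dpi *Xist* had 34 to 51 counts and the Y-linked genes 1095 to 1349. The 1 dpi libraries were mixed, with 1670, 461 and 63 *Xist* counts against 84, 1455 and 1207 Y-linked counts in replicates 1, 2 and 3. The 3 dpi libraries were also named by another scheme than the rest. A list of 11 macrophage and monocyte markers summed to between 54.94 and 286.69 CPM at 3 dpi and to 88.1 at 5 dpi, against 13.85 to 42.51 on the other days. Mitochondrial genes held 1.35% to 1.86% of counts at 1 and 2 dpi and 1.22% to 2.04% at 4 dpi, against 0.32% to 0.78% at 3 and 5 dpi. They held 1.71% in 6 dpi replicate 3 and 0.42% to 0.46% in the other two of that day. The library 3 dpi replicate 2 stood apart from the others of its day in several of the 7 genes, and differences of the 7 genes that rest on it are given with and without it. It also stood apart beyond these genes. Chi-square per degree of freedom, a measure of difference beyond sampling noise, was 174.56 to 229.68 in its pairs. In the other pairs of 3 dpi it was 24.46 to 38.62. Values without this library are not given for the genes of the pathway lists. The part of the marker and mitochondrial differences in the results was not tested. A day and its sex-linked pattern cannot be told apart between 3 and 4 dpi. The pattern also differs in part between 1 dpi and both 2 and 6 dpi. Only 1 dpi replicate 1 shares the pattern of 6 dpi. For 3 to 5 against 1 to 2 dpi, values within the libraries in which Y-linked counts exceeded *Xist* are given beside the results of the 7 genes. They are not given for the genes of the pathway lists.

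Of the 7 genes, *Plaur* and *Serpina3n* passed the test across days, and both had their highest mean at 1 dpi and their lowest at 6 dpi. This is the quasi-likelihood test of edgeR, Benjamini-Hochberg adjusted over 14030 genes, with a threshold of 0.05. *Serpina3n* passed it narrowly (adjusted p = 0.0496), and its call held in 4 of 7 alternative analyses and 4 of 16 fits with a library left out. The other 5 genes did not pass this test. Over all genes, 15.0% passed it. *Plau* was near the limit of detection throughout, and the remaining genes were measured at 8 counts or more in every library.

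The 250 bases before the transcription start are shown for *Plaur* and *Serpina3n*, which passed the test across days, the latter narrowly, and for *Serpinf1*, whose day means went the other way. They are from RefSeq on GRCm38.p6, where 5 of the 7 genes have an entry, and are written 5′ to 3′ on the strand of the gene. *Plaur* is at chr7:24462233-24462482 (plus strand), *Serpina3n* at chr12:104406458-104406707 (plus strand) and *Serpinf1* at chr11:75422624-75422873 (minus strand). The annotation used for the gene positions below starts *Serpinf1* at 75422701, so part of its window lies inside that gene. Capitals mark every match, on either strand, to 7 motifs. The motif of AP-1 factors was searched as TGANTCA, that of STAT factors as TTCNNNGAA, and that of CREB as TGACGTCA. The GC box bound by Sp1 was searched as GGGCGG, while the core promoter element known as the TATA box was taken as TATAAA. The sequence searched for the NF-Y factor was CCAAT, and the palindromic E-box was looked for in the form CACGTG.
*Plaur*: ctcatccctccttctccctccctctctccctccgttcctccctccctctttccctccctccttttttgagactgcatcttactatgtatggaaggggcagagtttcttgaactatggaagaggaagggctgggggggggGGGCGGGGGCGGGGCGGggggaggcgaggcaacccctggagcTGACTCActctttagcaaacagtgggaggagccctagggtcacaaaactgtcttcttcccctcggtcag
*Serpina3n*: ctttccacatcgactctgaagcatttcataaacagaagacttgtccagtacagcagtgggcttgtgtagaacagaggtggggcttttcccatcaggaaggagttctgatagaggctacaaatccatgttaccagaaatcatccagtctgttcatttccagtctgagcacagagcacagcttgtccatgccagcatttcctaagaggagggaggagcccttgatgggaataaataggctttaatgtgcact
*Serpinf1*: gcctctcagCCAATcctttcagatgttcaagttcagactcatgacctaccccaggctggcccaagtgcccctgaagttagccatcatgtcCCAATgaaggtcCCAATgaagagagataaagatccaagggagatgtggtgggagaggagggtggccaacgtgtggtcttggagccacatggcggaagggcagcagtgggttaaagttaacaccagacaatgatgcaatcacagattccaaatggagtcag
The *Plaur* window held TGACTCA between 69 and 63 bases before the start and 3 copies of GGGCGG between 111 and 95, of which 2 share 1 base. TGANTCA occurs in 6.7% and GGGCGG in 32.7% of the 32851 mouse promoter windows of this length. The *Serpina3n* window held none of the 7 motifs. The *Serpinf1* window held CCAAT 3 times, a motif present in 33.8% of windows. The share of G and C was 59.6% for *Plaur*, 46.4% for *Serpina3n* and 51.6% for *Serpinf1*. These matches describe the letters of the windows only.

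**Figure D1:**
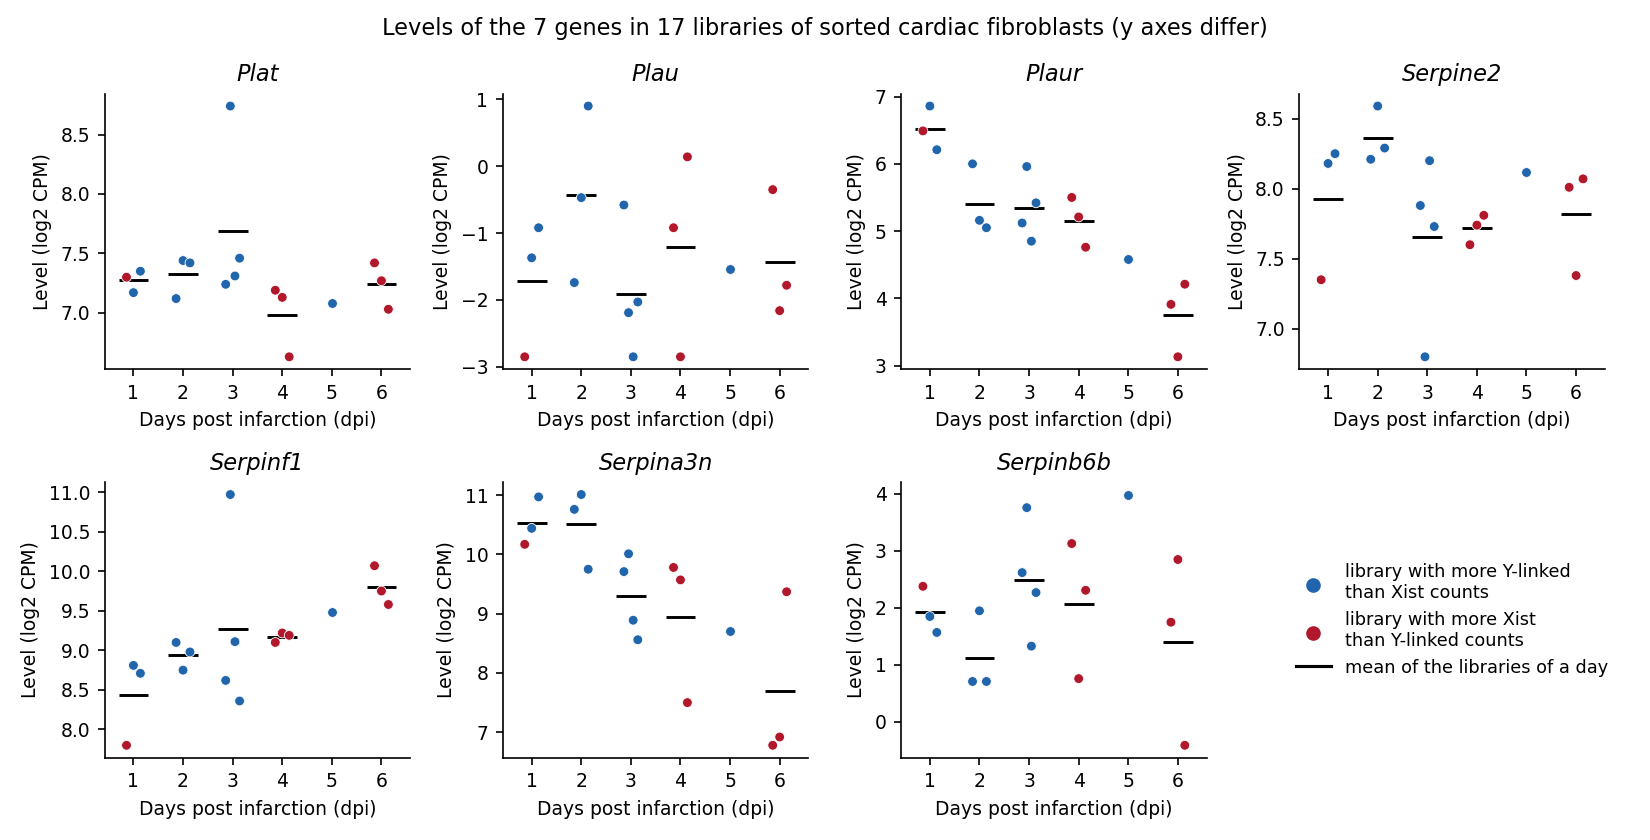
Level of each of the 7 genes (log2 CPM of TMM-normalized library sizes, y axes differ) against the day post infarction. Each point is 1 of 17 libraries, coloured by whether it held more *Xist* or more Y-linked counts, and bars are means of days with 3 or 4 libraries. *Plaur* steps down from a mean of 6.52 at 1 dpi to 3.75 at 6 dpi, and *Serpina3n* goes from 10.53 to 7.69 with 1 high library at 6 dpi.

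*Plat* (ENSMUSG00000031538, GRCm38 chromosome 8, 22757727 to 22782844, plus strand, 13 exons after merging transcripts) encodes tissue-type plasminogen activator, the form that works on fibrin. It was measured at 155.3, 158.3 and 169.8 CPM at 1 dpi and at 144.9, 172.9 and 172.2 at 2 dpi. At 3 dpi it was 162.1, 376.8, 178.2 and 195.6. At 4 dpi it was 128.6, 129.8 and 110.8, at 5 dpi 133.6, and at 6 dpi 158.2, 129 and 131.9. Apart from 3 dpi replicate 2, all libraries lay between 110.8 and 195.6 CPM. The day means in log2 CPM (± SD over the libraries of a day) were 7.28 ± 0.10 (n = 3) on day 1, 7.32 ± 0.18 (n = 3) on day 2, 7.69 ± 0.71 (n = 4) on day 3, 6.98 ± 0.31 (n = 3) on day 4 and 7.24 ± 0.20 (n = 3) on day 6. From high to low the days were ordered 3, 2, 1, 6, 5 and 4 dpi, and no neighbours in this order were separated.

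*Plat* did not pass the test across days (adjusted p = 0.302). Its mean over 3 to 5 dpi differed from that over 1 to 2 dpi by 0.00 on the log2 scale, with a 95% interval from -0.48 to 0.49, and 6 dpi differed from 3 to 5 dpi by -0.06, with an interval from -0.66 to 0.53. Within the libraries with more Y-linked counts the former difference was 0.16 (adjusted p = 0.822). All 3 libraries of 4 dpi lay below all 4 of 3 dpi, with a log2 fold change of -0.83 (SE 0.31) that did not pass the test (edgeR adjusted p = 0.157). Over all genes, 8.06% were separated in this way and direction between these days. Without 3 dpi replicate 2 the difference was -0.34.

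*Plau* (ENSMUSG00000021822, chromosome 14, 20836660 to 20843385, plus strand, 11 merged exons) encodes urokinase. It had 0, 6 and 8 counts at 1 dpi, 3, 11 and 30 at 2 dpi, 6, 1, 0 and 1 at 3 dpi, 6, 0 and 9 at 4 dpi, 2 at 5 dpi and 10, 1 and 2 at 6 dpi. These are 96 counts in 17 libraries. In 9 libraries *Plau* was at or under 3 counts, the smallest number taken as detected, which corresponds to between 0.136 and 0.374 CPM. Each day included a library at or under this floor, so its fold changes are not read, and no difference between days was detectable at this depth (edgeR adjusted p = 0.766 across days).

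*Plaur* (ENSMUSG00000046223, chromosome 7, 24462484 to 24475968, plus strand, 6 merged exons) encodes the urokinase receptor, a protein anchored to the outer face of the cell membrane. It was the gene with the clearest change. It was measured at 88.38, 128 and 76.84 CPM at 1 dpi and at 66.82, 35.51 and 33.35 at 2 dpi. At 3 dpi it was 37.23, 54.8, 32.31 and 47.49, and at 4 dpi 39.75, 34.14 and 30.23. It was 23.47 at 5 dpi and 13.77, 7.206 and 18.6 at 6 dpi. Every 1 dpi library was above every later one, and every 6 dpi library was below every earlier one, while 2, 3 and 4 dpi overlapped.

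In log2 CPM, the *Plaur* day means with their SDs were 6.52 ± 0.33 (n = 3) on day 1, 5.41 ± 0.52 (n = 3) on day 2, 5.34 ± 0.48 (n = 4) on day 3, 5.16 ± 0.37 (n = 3) on day 4, 4.58 on day 5 and 3.75 ± 0.56 (n = 3) on day 6. The means thus followed the order of the days, and 1 and 6 dpi differed 6.82-fold. The test across days gave an adjusted p of 0.000558. It stayed past the threshold with each of 16 libraries left out in turn (adjusted p from 0.000114 to 0.0039) and in 7 of 7 alternative analyses, including one with the replicate number as a block (0.00226).

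Between stages, *Plaur* fell at both steps. The study places the change of CFs into reparative cardiac fibroblasts (RCFs) between 3 and 5 dpi, so these days were compared with 1 to 2 dpi and with 6 dpi. From 1 to 2 dpi to 3 to 5 dpi it fell by 0.96 (SE 0.25) on the log2 scale, a 1.94-fold decrease (edgeR adjusted p = 0.0205). It was the only one of the 7 genes past the threshold, against 7.48% of all genes and 2.24% in this direction. This call was lost without the 5 dpi library (adjusted p = 0.0717), with 1 dpi replicate 2 (0.0522) or 2 dpi replicate 1 (0.06) left out, and with the replicate block (0.0533), at log2 fold changes between -1.16 and -0.72 over all alternatives. Within the 5 and 5 libraries in which Y-linked counts exceeded *Xist*, the difference was -1.03 (adjusted p = 0.0833). The share of mitochondrial counts was lower at 3 and 5 dpi, though not at 4 dpi, than at 1 and 2 dpi, and the summed fibroblast markers were lower at 1 dpi, where *Plaur* was highest, than at 2 to 5 dpi. Their part in the difference was not tested.

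From 3 to 5 dpi to 6 dpi, *Plaur* fell by a further 1.25 (SE 0.31), a 2.37-fold decrease (edgeR adjusted p = 0.0159). It was again the only one of the 7 genes past the threshold, against 11.5% of all genes and 5.29% in this direction. All 3 libraries of 6 dpi lay below all 8 of 3 to 5 dpi, as in 4.27% of all genes. At 6 dpi, 6 cardiomyocyte markers summed to between 68.27 and 131.42 CPM, against 7.62 to 63.7 CPM on the earlier days. The macrophage and monocyte markers, at 27.08 to 32.82 CPM, were lower than at 3 and 5 dpi. The fibroblast markers reached down to 17905.2 CPM, against at least 25018.35 at 3 to 5 dpi. The part of these markers in the difference was not tested. The call was lost without 6 dpi replicate 1 (adjusted p = 0.0639) or 2 (0.13) and without the 3 dpi libraries (0.0566). Between 4 and 6 dpi, days of the same sex-linked pattern, the difference was -1.38 (SE 0.35, adjusted p = 0.0613), with all 3 libraries lower (10.2% of all genes). Between 1 and 2 dpi it was -1.08 (SE 0.34, adjusted p = 0.369), again with all 3 lower (7.03% of all genes).

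*Serpine2* (ENSMUSG00000026249, chromosome 1, 79794197 to 79861180, minus strand, 10 merged exons) encodes protease nexin-1, a secreted inhibitor of thrombin and of both plasminogen activators. It was measured at 160.3, 320 and 316.9 CPM at 1 dpi and at 308.4, 385.1 and 316.5 at 2 dpi. At 3 dpi it was 253.6, 98.06, 329.7 and 235.5, and at 4 dpi 170.6, 197.7 and 251.1. It was 275 at 5 dpi and 238.8, 139.6 and 271.2 at 6 dpi. The lowest library was 3 dpi replicate 2, the one in which *Plat* was highest.

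The day means of *Serpine2*, with their SDs, ranged from 8.36 ± 0.20 log2 CPM (n = 3) on day 2 to 7.65 ± 0.60 (n = 4) on day 3, with 7.93 ± 0.50 (n = 3) on day 1, 7.71 ± 0.11 (n = 3) on day 4, 8.12 on day 5 and 7.82 ± 0.38 (n = 3) on day 6. The order was 2, 5, 1, 6, 4 and 3 dpi, in which only 2 dpi stood clear of its neighbour, the single 5 dpi library. The last place of 3 dpi depended on replicate 2, at 6.80, while the others of that day lay between 7.73 and 8.20. *Serpine2* did not pass the test across days (edgeR adjusted p = 0.47). In TMM-normalized log2 CPM the 4 libraries of 3 dpi lay below the 3 of 2 dpi, as 8.95% of genes did, but the nearest were at 8.20 and 8.21, and in plain CPM 3 dpi replicate 3 lay above 2 of the 3. The log2 difference was -0.64 (SE 0.29, edgeR adjusted p = 0.249), and -0.42 (0.346) without 3 dpi replicate 2. The intervals were -0.79 to 0.15 for 3 to 5 against 1 to 2 dpi and -0.58 to 0.57 for 6 against 3 to 5 dpi. Within the libraries with more Y-linked counts the former difference was -0.37 (adjusted p = 0.498).

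*Serpinf1* (ENSMUSG00000000753, chromosome 11, 75409769 to 75422701, minus strand, 9 merged exons) encodes pigment epithelium-derived factor, a secreted serpin that does not inhibit proteases and is known to oppose the growth of vessels. It was measured at 219.3, 494.5 and 433.6 CPM at 1 dpi and at 573.4, 428.8 and 508.3 at 2 dpi. At 3 dpi it was 422.1, 1769, 619.1 and 364.5, and at 4 dpi 484.2, 551.9 and 655.4. It was 703.4 at 5 dpi and 1000, 722.6 and 775.7 at 6 dpi. The 3 libraries of 6 dpi were above all others except 3 dpi replicate 2, which was the highest of the 17.

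The *Serpinf1* day means with their SDs were 8.44 ± 0.56 log2 CPM (n = 3) on day 1, 8.94 ± 0.18 (n = 3) on day 2, 9.27 ± 1.18 (n = 4) on day 3, 9.17 ± 0.06 (n = 3) on day 4, 9.48 on day 5 and 9.80 ± 0.25 (n = 3) on day 6. Neither the test across days (adjusted p = 0.268) nor that of 3 to 5 against 1 to 2 dpi (log2 difference 0.72, SE 0.34, adjusted p = 0.232) nor that of 6 against 3 to 5 dpi (0.38, SE 0.42, adjusted p = 0.59) passed the threshold. A single library decided the first and the last of these. Without 3 dpi replicate 2 the adjusted p of edgeR's test across days was 0.0083. For 6 against 3 to 5 dpi it was 0.0351, with a log2 difference of 0.69. Over all genes, more also passed both tests without this library, so the gain in calls was not particular to *Serpinf1*. The count across days is given below. For 3 to 5 against 1 to 2 dpi the *Serpinf1* difference without this library was 0.40 (adjusted p = 0.187). None of 13 fits with a library left out passed there. Within the libraries with more Y-linked counts the difference was 0.72 (adjusted p = 0.418). Between 4 and 6 dpi all 3 later libraries were higher, by 0.65 (SE 0.48, adjusted p = 0.467), as in 11.3% of genes.

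*Serpina3n* (ENSMUSG00000021091, chromosome 12, 104406729 to 104414329, plus strand, 5 merged exons) encodes a secreted inhibitor of serine proteases of leukocytes and is one of several mouse genes related to human antichymotrypsin. It was measured at 1132, 1532 and 2081 CPM at 1 dpi and at 1808, 2052 and 868.9 at 2 dpi. At 3 dpi it was 901.5, 905.7, 533.3 and 418.6, and at 4 dpi 776.2, 701.9 and 202.8. It was 411.3 at 5 dpi and 101.4, 101.3 and 670.1 at 6 dpi. Libraries of 1 and 2 dpi were high, but the days overlapped, since 6 dpi replicate 3 was at the level of 3 and 4 dpi and 4 dpi replicate 3 was low. None of the 441 stretches of 60 bases at the 3′ end of its transcript occurs in another annotated gene, its near relatives included.

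In log2 CPM, the *Serpina3n* day means with their SDs were 10.53 ± 0.41 (n = 3) on day 1, 10.51 ± 0.66 (n = 3) on day 2, 9.29 ± 0.68 (n = 4) on day 3, 8.95 ± 1.26 (n = 3) on day 4, 8.70 on day 5 and 7.69 ± 1.46 (n = 3) on day 6. The means followed the order of the days without a gap between any neighbours, and 1 and 6 dpi differed 7.16-fold. The 6 dpi mean includes replicate 3 at 9.37, against 6.78 and 6.92 in the others, so without it the fold would be larger. The test across days was just past the threshold (edgeR adjusted p = 0.0496). It was past it in 4 of 7 alternatives and in 4 of 16 fits with a library left out, with an adjusted p of 0.1 under the replicate block, 0.0559 with upper-quartile normalization and up to 0.118 with 1 library left out.

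The difference of 3 to 5 from 1 to 2 dpi in *Serpina3n* was -1.46 (SE 0.46, 95% interval -2.43 to -0.50), at an adjusted p of 0.0602 above the threshold. It was past it in 1 of 13 fits with a library left out, that without 3 dpi replicate 2 (-1.55, adjusted p = 0.0314), and in 4 of 11 alternatives, among them DESeq2 (0.0431), a fit of only the days compared (0.0226) and the libraries in which Y-linked counts exceeded *Xist* (-1.61, adjusted p = 0.0343). The mitochondrial share and, at 1 dpi, the fibroblast markers moved with this difference as for *Plaur*, and their part was not tested. The difference of 6 from 3 to 5 dpi was -0.90 (SE 0.55, adjusted p = 0.294). Its size depended on 1 library, 6 dpi replicate 3, the highest of its day and the one with 1.71% of mitochondrial counts. Without that library the difference was larger, at -2.27 (edgeR adjusted p = 0.00976), and that of 6 from 4 dpi was -2.40 (0.0174) in place of -1.03 (0.357).

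**Figure D2:**
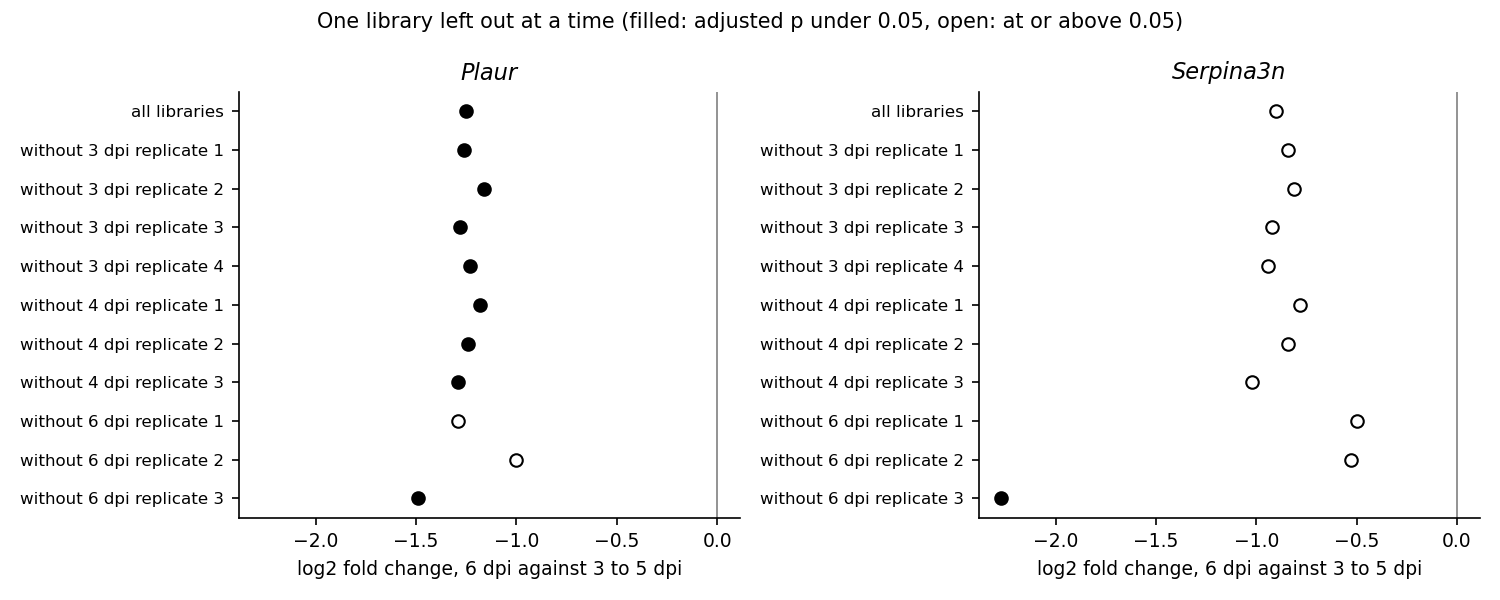
Log2 fold change of *Plaur* and *Serpina3n* at 6 dpi against 3 to 5 dpi, with all libraries at the top. In the other fits, each library of these days was left out in turn, except the single 5 dpi library. Filled points have an adjusted p under 0.05. *Plaur* stays below 0 in each fit, down to -1.49, and *Serpina3n* moves from -0.90 to -2.27 without 6 dpi replicate 3.

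*Serpinb6b* (ENSMUSG00000042842, chromosome 13, 32965209 to 32979067, plus strand, 7 merged exons) belongs to the clade B serpins, whose proteins mostly stay inside the cell, so the name of secreted serpins is not sure to hold for it. It was low, with 8 to 167 counts. It was measured at 4.986, 3.813 and 2.946 CPM at 1 dpi and at 1.566, 3.71 and 1.513 at 2 dpi. At 3 dpi it was 6.475, 11.82, 2.671 and 5.198, and at 4 dpi 7.618, 1.443 and 5.398. It was 15.54 at 5 dpi, the highest of the 17, and 2.994, 5.922 and 0.6226 at 6 dpi. The days with 3 or 4 libraries overlapped each other, while the single 5 dpi library lay above all of them.

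The *Serpinb6b* difference of 3 to 5 from 1 to 2 dpi was 1.47 on the log2 scale (SE 0.51, 95% interval 0.40 to 2.54), with an adjusted p of 0.0896 in edgeR and 0.0405 in DESeq2. It was past the threshold in 4 of 10 alternatives, among them the libraries in which Y-linked counts exceeded *Xist* (1.94, adjusted p = 0.0365), and in 0 of 13 fits with a library left out (adjusted p from 0.0622 to 0.19). Without the 5 dpi library it was 0.99 (adjusted p = 0.28), and over all alternatives it lay between 0.99 and 1.94. The macrophage and monocyte markers, with sums of 54.94 to 286.69 CPM at 3 dpi and 88.1 at 5 dpi, were high in the same days, and the mitochondrial share was low in them. Their part in the difference was not tested. *Serpinb6b* did not pass the test across days (adjusted p = 0.208).

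**Figure D3:**
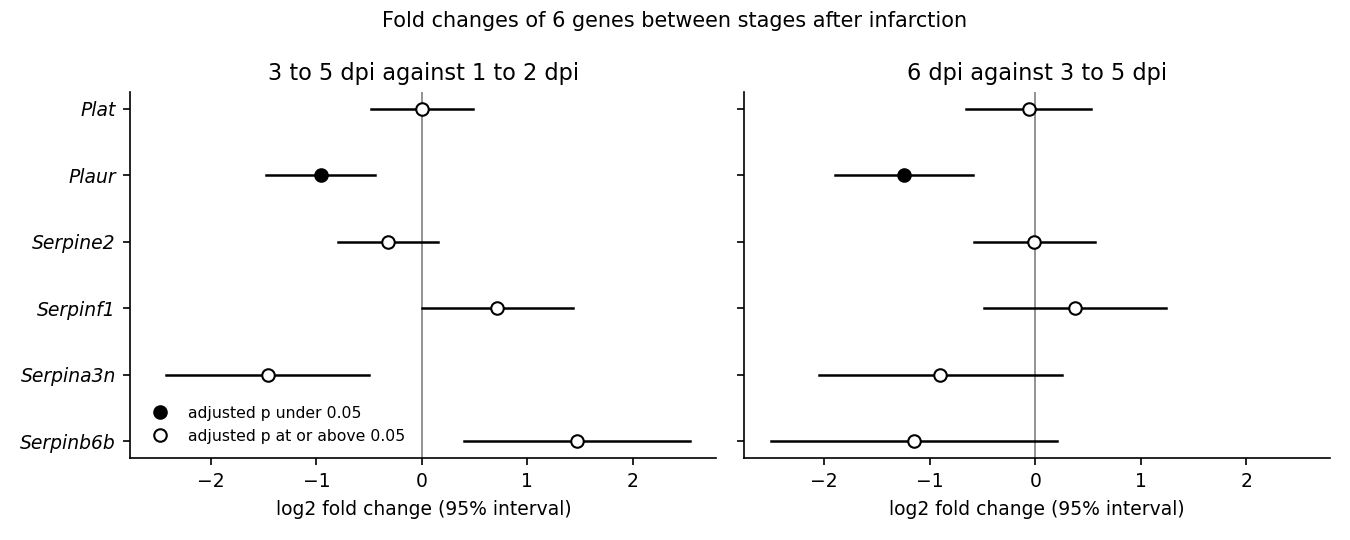
Log2 fold change with its 95% interval for 6 of the 7 genes in 3 to 5 dpi against 1 to 2 dpi and in 6 dpi against 3 to 5 dpi. Filled points have an adjusted p under 0.05, and *Plau* is left out because its counts were near the floor. *Plaur* is the only filled point in each panel, at -0.96 and -1.25.

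Between single days, none of the 7 genes passed the threshold in edgeR's test. Over all genes, 0.178% did for 2 against 1 dpi, 2.94% for 3 against 2 dpi, 2.71% for 4 against 3 dpi and 0.513% for 6 against 4 dpi. At an unadjusted p under 0.05 there were 1, 3, 1 and 1 of the 7 genes in these comparisons. The share of all genes at this unadjusted threshold is not given here, so these counts are not read as a result. DESeq2 called 0, 0, 0 and 1, the last being *Plaur*. Over all genes, DESeq2 called more than edgeR in each of these comparisons, with the counts for 6 against 4 dpi given below. The median log2 fold change of the 7 genes was -0.32 for 3 to 5 against 1 to 2 dpi and -0.06 for 6 against 3 to 5 dpi, beside 0.00 and -0.01 over all genes tested.

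Across the 17 libraries, *Plaur* and *Serpina3n* had a Pearson r of 0.79 in log2 CPM, a description in which libraries of a day share their stage. The values of r here and below include 3 dpi replicate 2 and were not computed without it. Among 8914 genes with a mean of at least 100 counts, the 2 closest to *Plaur* were *Hmga1*, a chromatin protein (r = 0.928), and *Ch25h*, cholesterol 25-hydroxylase (r = 0.927). The closest to *Serpina3n* were *Uap1*, an enzyme of amino sugar synthesis (r = 0.919), and *Eci1*, an enzyme of fatty acid oxidation (r = 0.898). *Serpinf1* was closest to *Bmp1*, which encodes a protease that trims procollagen (r = 0.921), and *Srpx2*, which encodes a secreted protein with sushi repeats (r = 0.92).

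*Plat* was closest to *G6pdx*, the first enzyme of the pentose phosphate pathway (r = 0.899), and *Kars*, a lysyl-tRNA synthetase (r = 0.894). *Serpine2* was closest to *Ciao1* (r = 0.855) and *Smtnl2* (r = 0.85), and *Serpinb6b* to *Zfp516* (r = 0.734) and *Nab2* (r = 0.731). *Plau*, with most libraries at the floor, had its highest values with *Med24* (r = 0.693) and *Fam49a* (r = 0.692).

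The rest of the plasminogen system was read from a list of 25 further genes of activation, inhibition, receptors and clearance, of which 18 were tested. Across days, 7 of the 18 passed the threshold, against 15.0% of all genes. *Plg*, which encodes plasminogen and is made by the liver, had at most 10 counts in a library. *Serpinb2*, which encodes an inhibitor of urokinase, had day means of 4.76, 3.06, 5.93, 3.13, 5.64 and 1.61 log2 CPM from 1 to 6 dpi (adjusted p = 0.0144 across days). It fell by 2.70 (SE 0.77) from 3 to 5 dpi to 6 dpi (adjusted p = 0.0294), while between 4 and 6 dpi the difference was -1.29 (SE 0.80, adjusted p = 0.374). It was high at 3 and 5 dpi and low at 4 dpi, as were the macrophage and monocyte markers (29.87 to 40.77 CPM at 4 dpi), whose part in the difference was not tested. *Plaur* and *Serpinb2* both had their lowest day mean at 6 dpi.

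Others of the list rose. From 1 to 2 dpi to 3 to 5 dpi, *Plgrkt*, a plasminogen receptor of the membrane, rose by 0.83 (SE 0.15, adjusted p = 0.00127), *Igf2r*, which binds plasminogen and the urokinase receptor, by 0.81 (SE 0.19, adjusted p = 0.00963) and *Hgf*, a growth factor of plasminogen-like structure, by 2.10 (SE 0.56, adjusted p = 0.0246). *Hgf* was low, at 4 to 153 counts per library. *Vldlr*, an endocytic receptor that takes up inhibitor-bound activators, fell by 1.05 (SE 0.31, adjusted p = 0.0403). With 3 genes higher and 1 lower, 4 of 18 passed, against 7.48% of all genes, and the median of the 18 was 0.26, beside 0.00 over all genes tested. The macrophage and monocyte markers were higher, and the mitochondrial share lower, at 3 and 5 dpi than at 1 and 2 dpi. Their part in these differences, and in those of the lists below, was not tested. The single 5 dpi library weighs as much as a whole day in the mean of 3 to 5 dpi. For *Plgrkt* it was the highest, at 6.41 log2 CPM, against means of 5.81 and 5.55 at 3 and 4 dpi. For *Igf2r*, *Hgf* and *Vldlr* it lay between the means of 3 and 4 dpi. Differences of the list genes are not given without it. From 3 to 5 dpi to 6 dpi, *S100a10*, which binds plasminogen together with annexin A2, rose by 1.15 (SE 0.35, adjusted p = 0.0409) and *Mrc2*, a collagen uptake receptor that associates with the urokinase receptor, by 0.79 (SE 0.25, adjusted p = 0.044), so that 2 were higher and 2 lower with a median of -0.03, beside -0.01 over all genes, of which 11.5% passed (6.25% higher and 5.29% lower). Between 4 and 6 dpi, days of the same sex-linked pattern, neither passed, with differences of 0.97 (adjusted p = 0.207) for *S100a10* and 0.93 (adjusted p = 0.104) for *Mrc2*. *Itgb3*, an integrin subunit, passed across days (adjusted p = 0.0485).

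**Figure D4:**
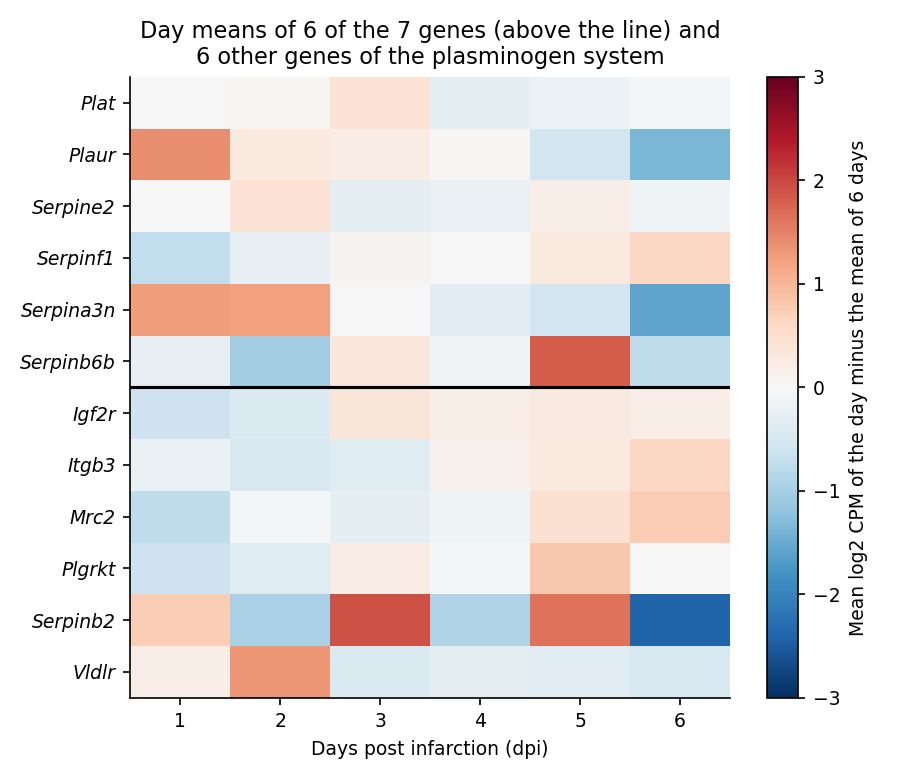
Mean log2 CPM of each day minus the mean of the 6 days for 6 of the 7 genes (above the line, *Plau* left out) and for 6 further genes of the plasminogen list that passed the test across days (below). Red is above and blue below a gene's own mean. *Plaur*, *Serpina3n*, *Serpinb2* and, by a small margin, *Vldlr* are lowest at 6 dpi, and *Serpinf1*, *Mrc2* and *Itgb3* are highest there.

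Of 18 genes of fibrin and coagulation, 10 were tested and 3 passed across days, against 15.0% of all genes. These were *Procr*, the endothelial protein C receptor (adjusted p = 0.00116), *Thbd*, thrombomodulin (0.0365), and *F3*, tissue factor (0.042). *Thbd* fell by 1.07 (SE 0.24, adjusted p = 0.00671) from 1 to 2 dpi to 3 to 5 dpi. Its single 5 dpi library was at 5.46 log2 CPM, below the means of 6.37 and 6.14 at 3 and 4 dpi. *Procr* fell by 2.16 (SE 0.33, adjusted p = 0.00105) and *Tfpi2*, an inhibitor that also acts on plasmin, by 1.77 (SE 0.48, adjusted p = 0.0233) from 3 to 5 dpi to 6 dpi. Between 4 and 6 dpi, *Procr* passed (-1.81, adjusted p = 0.0368) and *Tfpi2* did not (-1.87, adjusted p = 0.0852). *F3* fell by 1.11 (SE 0.26, adjusted p = 0.0259) from 3 to 4 dpi. The medians of the 10 were -0.07 and -0.74 for 3 to 5 against 1 to 2 dpi and 6 against 3 to 5 dpi.

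Of 57 other serpins, 19 were tested and 21 had no count in any library. Across days 5 of the 19 passed, against 15.0% of all genes, among them *Serpina3c*, *Serpina3g*, *Serpina3m* and *Serpinb2*. The near relatives of *Serpina3n* went different ways. From 1 to 2 dpi to 3 to 5 dpi, *Serpina3g* rose by 2.07 (SE 0.29, adjusted p = 0.000112), while *Serpina3m* fell (adjusted p = 0.00427). From 3 to 5 dpi to 6 dpi, 5 of the 19 passed and these were lower, against 11.5% of all genes passing and 5.29% in this direction. *Serpina3c* fell by 2.05 (SE 0.54, adjusted p = 0.02), *Serpina3g* by 1.23 (SE 0.36, adjusted p = 0.035), and *Serpina3m* was lower as well (adjusted p = 0.0239). Counts were low, at 5 to 166 per library for *Serpina3c* and 9 to 613 for *Serpina3g*. The day means of *Serpina3m* were 2.67, 3.19, 1.30, -1.64, 0.58 and -2.50 log2 CPM from 1 to 6 dpi, and since its lowest library had 0 counts no fold change is given for it. Between 4 and 6 dpi, *Serpina3g* passed (-1.86, adjusted p = 0.0477), and *Serpina3c* (-1.42, adjusted p = 0.19) and *Serpina3m* (adjusted p = 0.386) did not. The cardiomyocyte markers were higher at 6 dpi than on the earlier days and the macrophage and monocyte markers, at 27.08 to 32.82 CPM, lower than at 3 and 5 dpi, and their part in the differences of 6 dpi in these lists was not tested. *Serpinb6a*, a relative of *Serpinb6b*, did not pass (adjusted p = 0.686), with day means from 8.39 to 9.07 log2 CPM.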

How the data were processed

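The deposited table holds counts, which the authors made from MARS-seq reads of sorted CFs by demultiplexing with bcl2fastq (1.2.4), aligning to mm10 and counting with featureCounts on an Ensembl annotation, without normalization. Whether counting used strand, and whether PCR copies were collapsed, is not given in the sources used here, so the floor of 3 counts covers counting error only. Each of the 17 columns was matched to its library by its label, and the 5 dpi library, replicate 3 in its title and 1 in its description, kept the title's number. The 18 pairs of libraries of a day differed by more than sampling noise (chi-square per degree of freedom at least 23.03).

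In R (4.3.3), the quasi-likelihood test of edgeR (4.0.16) was run on TMM-normalized libraries for genes that reached 10 counts in 3 or more of them. The model had 6 day levels over all 17 libraries, no replicate block, and Benjamini-Hochberg adjustment over 14030 genes. The single 5 dpi library adds nothing to the spread and was not tested alone. Stages are means of day coefficients, so the single 5 dpi library weighs as much as the 4 libraries of 3 dpi. For levels in log2 CPM, the prior count was 2. Intervals are at 95%. Replicate numbers did not pair the libraries, since the mean correlation of deviations was 0.011 over 30 pairs with the same number and -0.005 over 72 others. Tested on simulated data for 3 to 5 against 1 to 2 dpi (13675 genes), the test called 32.3% of 99 genes changed by 1 and 83.7% of 98 changed by 2 on the log2 scale, and 5 of 13478 unchanged genes.

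By rule, the named genes are the 7 chosen ones, the genes of the pathway lists past the threshold across days, and the 2 genes with the highest r to each. *Hgf*, *S100a10* and *Tfpi2*, past it between stages only, and *Plg* and *Serpinb6a* fall outside this rule and were named after their values were seen. One gene of the lists is included in their counts and medians, but its own values are not reported here and it was left out of the heatmap. The members and lists were chosen with earlier results of these data known. Alternatives were DESeq2 (1.42.0), other normalizations, filters and estimates of the spread, the replicate block, subsets of libraries and single libraries left out. The 5 dpi library was not among these single libraries. Positions are from GENCODE vM21 and promoters from RefSeq, another release than the authors counted on. Tables were read with pandas and drawn with matplotlib under Python.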

Additional observations from a re-analysis of the deposited data

Results flagged for a closer look

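The level of *Plat* in 3 dpi replicate 2 was 8.74 log2 CPM, while the other 3 libraries of that day lay between 7.24 and 7.46. Its distance to the next library made up 0.851 of the whole spread on day 3, which is past the critical value of Dixon's test for 4 libraries. Chance passes this value in about 1 of 20 groups, and 7 genes were examined on this day, the only one with more than 3 libraries. In the same library *Serpinf1* was at 1769 CPM against 364.5 to 619.1 in the other 3, and *Serpine2* at 98.06 against 235.5 to 329.7, neither of which passed the critical value.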

How the results depend on the processing

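In the time course, 2 of the 7 genes passed the threshold. The count was 1 with upper-quartile normalization, with a robust estimate of the spread and with the replicate block, 4 with every gene of at least 1 count, and 1 to 3 with a library left out. For 3 to 5 against 1 to 2 dpi it was 1, and 3 with DESeq2, 4 with every gene, 2 with only the days compared or only the libraries in which Y-linked counts exceeded *Xist*, 0 without the 5 dpi library and 0 to 2 with a library left out. For 6 against 3 to 5 dpi it was 1, and 2 with every gene, 0 without the 3 dpi libraries and 0 to 2 with a library left out. Where none was called, every gene gave 1 for 2 against 1 dpi, 2 for 3 against 2 dpi and 1 for 6 against 4 dpi, DESeq2 gave 1 for 6 against 4 dpi, and leaving out a library gave 0 to 2 for 6 against 4 dpi and 0 to 0 for the other single days. With every gene, 153 of all genes passed for 2 against 1 dpi, 980 for 3 against 2 dpi and 882 for 6 against 4. In the same order, the main fit gave 25, 412 and 72. With DESeq2, 807 of all genes passed for 6 against 4 dpi. The cause of these moves was not tested. Over all genes, DESeq2 called 3757 across days, against 2099 with edgeR, and 3466 passed without 3 dpi replicate 2. Also across days, 3729 passed with every gene, 2095 with upper-quartile normalization, 2115 with the robust spread and 1494 with the replicate block. For 3 to 5 against 1 to 2 dpi, 1050 passed, 1555 with DESeq2, 1486 with every gene and 1069 with only the days compared. There, 811 passed in the libraries with more Y-linked counts and 875 without the 5 dpi library. For 6 against 3 to 5 dpi, 1619 passed, 2132 with every gene and 779 without the 3 dpi libraries.

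Directions also turned, in each case for differences that had not passed the threshold. *Serpine2* for 6 against 3 to 5 dpi (-0.01) was 0.01 with DESeq2, its size factors, upper-quartile normalization or at least 10 counts in every library, 0.06 with the replicate block, 0.12 without the 5 dpi library and -0.13 to 0.18 with a library left out. *Serpine2* for 4 against 3 dpi was 0.01 with the replicate block and -0.23 to 0.17 with a library left out. *Plat* for 6 against 3 to 5 dpi was 0.22 without the 3 dpi libraries and -0.15 to 0.10 with 1 left out, and for 3 to 5 against 1 to 2 dpi (0.00) it was -0.29 without the 3 dpi libraries, up to 0.16 under the other settings, and -0.16 to 0.04 with 1 left out. With a library left out, ranges that crossed 0 were -0.22 to 0.32 for *Serpina3n* in 2 against 1 dpi, -0.32 to 0.28 for *Plaur* and -0.22 to 0.97 for *Serpinf1* in 3 against 2 dpi, and -0.40 to 0.04 for *Plaur*, -0.77 to 0.44 for *Serpinf1*, -0.53 to 0.26 for *Serpina3n* and -1.09 to 0.20 for *Serpinb6b* in 4 against 3 dpi. Both turns of *Serpinf1*, from 0.73 to -0.22 and from -0.51 to 0.44, came without 3 dpi replicate 2. In 6 against 4 dpi they were -1.36 to 0.21 for *Serpinb6b* and -1.12 to 0.64 for *Plau*, fitted on 0 to 10 counts and not read as a change.

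With the replicate block, *Plaur* lost its call between 1 to 2 and 3 to 5 dpi and *Serpinb6b* gained one, so the count of 1 there was another gene. The numbers do not pair the libraries. Correlations of same-numbered libraries ranged from -0.11 to 0.20, so that a call lost or gained under the block is not read as a weaker or stronger effect. Values of single genes were also compared under other settings, with no single library left out. Of these, 367 were counted as keeping direction and side of the threshold. Another 17 passed it anew, 7 lost it and 8 turned. The 367 include *Plat* for 3 to 5 against 1 to 2 dpi, at 0.003 in the main fit. Its sign changed to -0.29 when the 3 dpi libraries were dropped. It was -0.01 under the filter that kept every gene. Neither value is among the 8. Depth limits *Plau* and, at 8 to 167 counts, *Serpinb6b*.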
